A study of Gallus gallus with 8 samples.

Results

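The 200 steadiest well-read transcripts of the chicken liver were taken from a table of 14634 genes measured in 8 pools of liver RNA. The 100 genes of highest mean were set aside, genes with a mean deposited log2 value of at least 9 over the 8 pools were kept, and from the 3750 genes left (25.6% of the table) the 200 with the smallest range were taken. The range is the highest minus the lowest deposited log2 value over the 8 pools, so these 200 genes are 5.33% of the genes open to the rule and 1.37% of the table. The rule read every pool. The ranges, and every ascites or sex difference of these genes on the same pools, therefore describe how the genes were chosen and carry no test.

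Liver messenger RNA came from meat-type chickens that were kept warm until day 21, when the house reached 24 °C, and at 18 °C from day 22 to the end of the experiment on day 48, with high-energy feed. The labels split the birds by sex and by disease into 4 groups, healthy or ascitic birds of either sex, and ascitic birds carry the entry water belly as their health status. The RNA of 32 livers went into the pools, 4 birds to a pool and 2 pools to a group, so differences among the 4 birds of a pool are not seen. Healthy and ascitic birds alike met the cold and the rich feed, ascites was not assigned to birds, and a label entry of day 42 does not say whether it is the age at sampling.

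Genes whose messenger level varies little between samples are used as internal references in quantitative PCR, where the level of a gene of interest is divided by theirs. Such reference genes often belong to the machinery that every cell needs, such as ribosomes, the proteasome or the cytoskeleton, and their steadiness has to be checked in each tissue and disease. Liver is a demanding tissue for this, because a few transcripts for secreted plasma proteins can fill a large part of its messenger RNA, and sequencing reads measure shares of that total. Size factors, the scaling behind the deposited values, instead centre each library on the middle of the ratios over all genes. The files give Ensembl IDs without gene names, and 0 of the IDs matched the reference table, so the kinds of gene among the 200 are not described and 4 genes are given by ID.

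Total reads per pool ran from 26459951 to 33193179. A pair of pools stood apart before any result. Healthy female 2 had a size factor of 0.484 at 26821645 reads, where the other 7 pools had factors from 0.857 to 1.56, and its 100 most-read genes held 65.5% of its reads, against 51.6% to 60.9% in the other pools. In the pool labelled healthy male 1 there were 5585 normalized reads of 11 genes that each female pool expressed and that the other 3 male pools nearly lacked, at sums of 3.17 to 6.43. Those 11 genes were chosen after their values were seen. Genes that differ so much between pools cannot have a small range, so 0 of them belong to the steady genes by definition. Many of the ranges, differences, overlaps and lists below that these pools could move are also given without 1 or both of them. Others are not, such as the shares of the sum of squares, the gaps within groups and the genes shared between lists.

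By range on the deposited scale, the steadiest gene of the table was ENSGALG00000001099. It had 523 and 575 normalized reads in healthy female pools, 578 and 531 in the healthy male pools, 571 and 513 in ascitic female pools and 523 and 527 in the ascitic male pools, where normalized reads are recovered reads divided by the size factor of the pool. The healthy pools spanned 523 to 578 and the ascitic pools 513 to 571, so the groups overlapped almost fully. Its range was 0.16 on the deposited log2 scale, a 1.12-fold span on that scale between its highest and lowest pool. That scale compresses low levels, so its normalized reads spanned slightly more. Its estimated ascites difference was -0.05 (standard error 0.18, limma).

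ENSGALG00000040141 and ENSGALG00000016996 were nearly as steady at different read depths. ENSGALG00000040141 had 546 and 562 normalized reads in healthy female pools, 541 and 583 in the healthy male pools, 536 and 604 in ascitic female pools and 566 and 547 in the ascitic male pools. Its highest and its lowest pool were both ascitic female pools, so its span, 1.12-fold on the deposited scale, lay inside 1 group. ENSGALG00000016996 had 4225 and 3984 normalized reads in healthy female pools, 4476 and 4219.5 in the healthy male pools, 4309.9 and 4001 in ascitic female pools and 4331 and 4166 in the ascitic male pools. Its highest pool, healthy male 1, and its lowest, healthy female 2, were both healthy. The healthy mean was 4226 ± 201 and the ascitic mean 4202 ± 153 normalized reads (SD, n = 4 each).

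ENSGALG00000030475, ranked 4 by range, had 774 and 705 normalized reads in healthy female pools, 666 and 744 in the healthy male pools, 781 and 716 in ascitic female pools and 727 and 732 in the ascitic male pools. The ascitic pools lay inside the healthy span except ascitic female 1, the highest of the 8. Its range was 0.22 and its estimated ascites difference 0.03 (standard error 0.18, limma). These 4 genes are the steadiest with an estimate above 0 and with one below 0, 2 of each. Normalized reads are not divided by transcript length, so levels are compared between pools of 1 gene and not between genes.

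**Figure D1:**
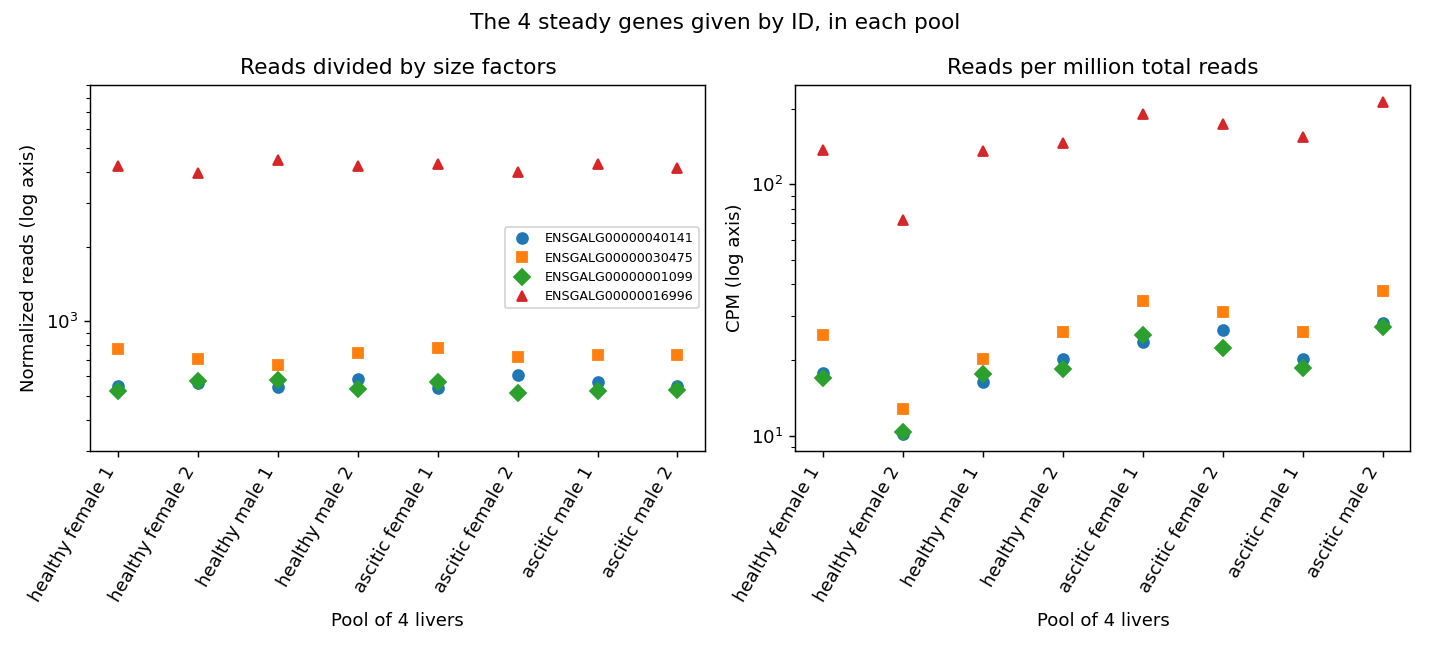
Levels of the 4 genes given by ID in each pool of 4 livers, as reads divided by size factors (left) and as CPM, reads per total reads (right), both on log axes; each marker is 1 pool. On the left each gene spans at most 1.17-fold, and on the right the lowest marker of every gene is healthy female 2 and the highest is ascitic male 2.

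Divided by total reads in place of size factors, the same 4 genes were no longer level. ENSGALG00000001099 had 16.9 and 10.4 reads in every 1000000 (CPM) in healthy female pools, 17.5 and 18.4 in the healthy male pools, 25.1 and 22.3 in ascitic female pools and 18.6 and 27.0 in the ascitic male pools. Every ascitic pool was above every healthy pool, by 18.6 against 18.4 CPM at the nearest, and the highest pool had 2.60 times the lowest. ENSGALG00000016996 had 137 and 71.8 CPM in healthy female pools, 136 and 146 in the healthy male pools, 189.8 and 174 in ascitic female pools and 154 and 213 in the ascitic male pools. Its ascitic pools also lay above its healthy pools, and the highest had 2.97 times the lowest. For ENSGALG00000040141 and ENSGALG00000030475 the highest pool had 2.76 and 2.95 times the lowest. The states overlapped for ENSGALG00000040141, with 20.11 CPM in ascitic male 1 and 20.21 in healthy male 2. ENSGALG00000030475 had its ascitic pools above its healthy pools, by 25.86 against 25.82 CPM at the nearest.

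Among the 200 genes the range ran from 0.16 to 0.55 with a median of 0.45, which is a 1.37-fold span on the deposited scale between the highest and the lowest pool. The other genes open to the rule had a median range of 1.42. A range under 0.2 was found for 3 genes and one from 0.2 to 0.3 for 11, while 51 lay between 0.3 and 0.4, 85 between 0.4 and 0.5 and 50 above 0.5. The limit fell in a continuous run of values. The last gene inside had a range of 0.5469 and the first outside 0.5485, and the lowest mean inside was 9.0005 where the highest mean under the limit was 8.9992. Of the 100 genes set aside for their high mean, 0 had a range within the limit, so the steady genes would be the same 200 had none been set aside.

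The steady genes lay towards the lower end of the levels open to the rule. Their mean deposited value ran from 9.0005 to 14.62 with a median of 9.82, against 10.30 in the other open genes, and their mean normalized reads ran from 479.7 to 25168 with a median of 875. Of 843 open genes with a mean between 9 and 9.5, 65 (7.71%) were steady, and of 581 with a mean of 12 or more, 11 (1.89%). Over the open genes the median range was 1.28 in the first class and 1.54 in the second. Across the 3750 genes mean and range had a Spearman correlation of 0.15, a description over genes that share the same 8 libraries, and within the steady genes it was 0.05. In the classes between, the share of steady genes was 7.05%, 4.87% and 4.0%, from low to high mean. More reads mean less counting error, and the share of steady genes did not rise with them here.

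**Figure D2:**
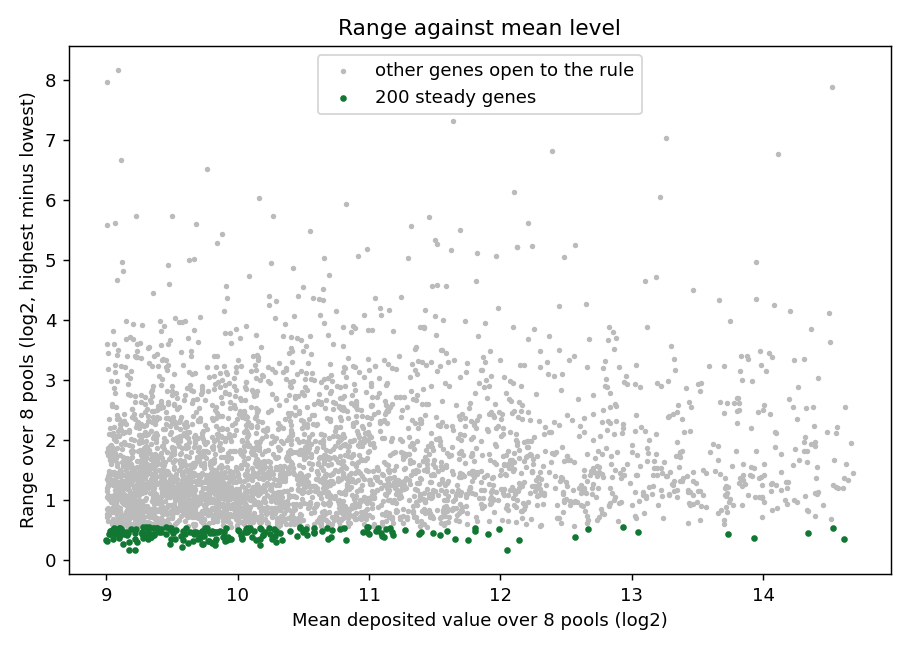
Range over the 8 pools against the mean deposited value, both in log2 units, for the 3750 genes open to the rule; each point is 1 gene and green points are the 200 steady genes. The green band under 0.55 thins out to the right, and 11 steady genes have a mean of 12 or more.

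For a few genes the variation between pools was about what counting reads gives by itself. The variance of the reads around the level expected from the size factors was compared with the variance that counting alone would give. That ratio was 1.11 for ENSGALG00000040141, 1.34 for ENSGALG00000001099, 1.92 for ENSGALG00000030475 and 5.84 for ENSGALG00000016996. Over the steady genes it had a median of 10.8 and reached 305, and it was under 2 for 4 genes, under 5 for 22 and under 10 for 91. In the other 3550 open genes the median was 164, with 0 genes under 5 and 19 under 10. The rule took the smallest ranges over these same pools, so low ratios among the steady genes follow from the choice.

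The same holds for the coefficient of variation (CV), the standard deviation of normalized reads over the 8 pools divided by their mean. It ran from 3.93% to 17.8% among the steady genes with a median of 11.4%, against a median of 32.9% in the other open genes. Counting alone would give a median CV of 3.49% in the steady genes and 2.88% in the others. For most of the steady genes the pools thus differed by more than counting error. That they differed by less than for the other genes follows from the choice by range.

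The extremes of the steady genes were unevenly spread over the pools. Healthy female 1 was the highest pool for 69 of the 200 genes, healthy male 1 for 33, ascitic male 1 for 24, healthy female 2 for 23, healthy male 2 for 18, ascitic female 1 for 13, ascitic male 2 for 12 and ascitic female 2 for 8. The lowest pool was healthy female 2 for 44 genes, ascitic male 2 for 39 and ascitic female 1 for 29, and healthy female 1 for 9. Healthy female 1 thus sat high as a whole. The median deviation of the 200 genes from their own means was 0.11 there and between -0.05 and 0.05 in the other 7 pools, and 152 of the 200 genes were above their mean in it. This was not particular to the steady genes. In the other open genes the median deviation was 0.15 in healthy female 1, 0.20 in healthy female 2 and 0.12 in healthy male 1. It ran from -0.27 in ascitic male 2 to 0.03 in healthy male 2 over the remaining pools.

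Differences between disease states and sexes were small among the steady genes, as the limit on the range requires. The ascitic minus healthy difference ran from -0.33 to 0.30 log2 units, with a median of -0.05 and a median size of 0.09, and was below 0 for 132 genes and above 0 for 68. The male minus female difference ran from -0.28 to 0.29, with a median of -0.01 and a median size of 0.09. In the other open genes the median sizes were 0.48 and 0.24, and their median ascites difference was -0.31. Without healthy female 2 the median sizes of the steady genes were 0.11 for ascites and 0.10 for sex, and without healthy male 1 they were 0.09 for each. In bulk RNA fewer cells of a type and less RNA per cell cannot be told apart, for these genes or any other.

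The variation of the median steady gene lay largely between pools of the same group. The 4 groups give 4 such gaps, whereas disease status, sex and their interaction are 1 term each. A gene without any effect would therefore also tend to have its largest share there. Gaps between the 2 pools of a group took a median of 53.0% of the sum of squares of a steady gene, disease status 10.3%, sex 8.72% and their interaction 5.68%. In the other open genes these medians were 39.6%, 32.2%, 7.54% and 7.21%. The rule kept the range over both disease states small, which favours a low share of disease status among the steady genes. These shares are not given without healthy female 2. The median gap between the 2 pools of a group was 0.21 in healthy females, 0.15 in healthy males, 0.10 in ascitic females and 0.14 in ascitic males, against 0.81, 0.36, 0.13 and 0.29 in the other open genes. The ascitic female pools therefore were nearly as close to each other over the other genes as over the steady ones, and the healthy female pools were not.

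In limma fits over 13766 genes, 0 of the 200 steady genes passed an adjusted p of 0.05 for the ascites effect, where 10.1% of all genes did, and since the rule read the same contrast nothing follows from it. The members also counted 0 at an unadjusted p under 0.05, beside 29.1% of all genes, and 0 in limma-voom, beside 10.1%. For the effect in males they counted 0 beside 3.32% of all genes, for that in females 0 beside 0.0363%, and for sex and for the interaction 0 beside 0.0%, with 6.73% and 6.07% of all genes at an unadjusted p under 0.05 and 0 members at that limit. The 4 ascitic pools did not overlap the 4 healthy pools for 11 steady genes (5.5%), 2 higher and 9 lower in ascitic birds, beside 21.3% of all genes tested. The 4 male and 4 female pools did not overlap for 5 steady genes, beside 2.59% of all genes. Fewer pools overlap less by construction. Without healthy female 2 the counts were 17 for ascites beside 28.3% of all genes and 9 for sex beside 6.22%, and without healthy male 1 they were 17 beside 24.8% and 9 beside 5.46%. With both pools left out they were 37 of the 200 beside 37.7% and 20 of the 200 beside 9.87%. For sex the steady genes were then near the share of all genes.

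The steadiness of the 200 genes rested on the scaling. With total reads in place of size factors and the same transformation, their ranges ran from 0.88 to 1.99. The median was 1.45, a 2.73-fold span on that scale, and 195 of the 200 had a range over 1, against 79.5% of the other open genes. The same rule applied to values scaled by total reads chose 200 genes of which 0 were among these. Their largest range on that scale was 0.65. Total reads gave factors of 0.679 times the deposited one in ascitic male 2, 1.15 times in healthy male 1 and 1.93 times in healthy female 2. Deposited ranges of at most 0.55 cannot offset these gaps, so the 0 and the lowest pool given below were fixed by the choice. The count of ranges over 1 followed largely from it too, so its excess over the other open genes carries no result. By range under total reads the steady genes had a median rank of 1485.5 among the 3750, and 39 of them were above the median range of 1.67. Healthy female 2 was the lowest pool for 200 of 200 steady genes on this scale, and ascitic male 2 was the highest for 155, ascitic female 2 for 24 and ascitic female 1 for 21.

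A change of factors shifts the well-read genes of a pool by nearly the same amount, so the steady genes moved as a block. With deposited ranges of at most 0.55, the direction of their ascitic minus healthy difference was fixed as well. Scaled by total reads, their median deviation was -0.93 in healthy female 2, -0.14 in healthy male 1, -0.03 in healthy male 2 and 0.01 in healthy female 1. In the ascitic pools it was 0.28 and 0.28 in the females and 0.06 and 0.49 in the males. The ascitic minus healthy difference was above 0 for 200 of 200 genes, from 0.27 to 0.91 with a median of 0.56, while the median over all 13766 genes was 0.48 under total reads and 0.02 with size factors. Without healthy female 2 the median range of the steady genes under total reads was 0.73, and their ascitic minus healthy difference had a median of 0.32 and was above 0 for 199 genes. Without healthy male 1 the median range was 1.45 and the median difference 0.52.

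**Figure D3:**
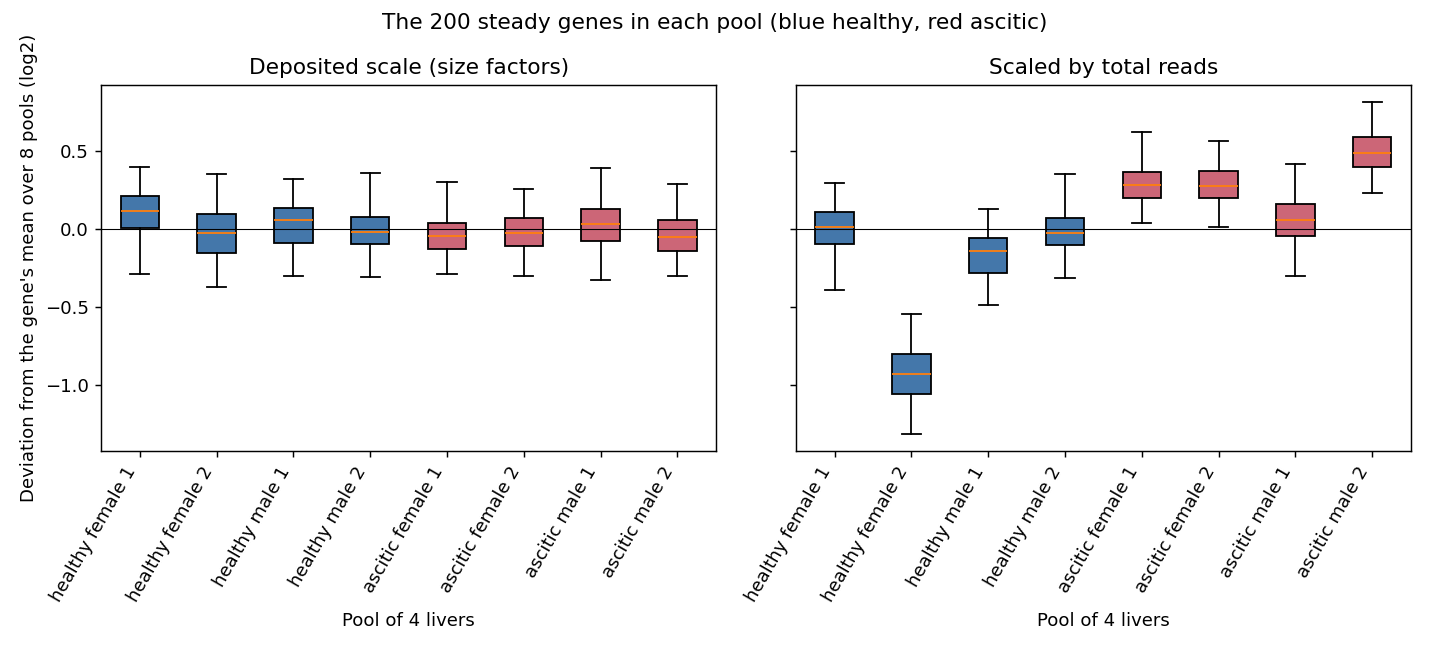
Deviation of the 200 steady genes from their own means over 8 pools, in log2 units, on the deposited scale (left) and scaled by total reads (right); boxes give quartiles with the median, whiskers the lowest and highest gene, blue healthy and red ascitic pools. On the left the medians lie between -0.05 and 0.11, and on the right the box of healthy female 2 has its median at -0.93 and that of ascitic male 2 at 0.49.

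Scaled by total reads, 0 of the 200 steady genes passed the ascites effect in limma beside 18.5% of all genes, and 42 had an unadjusted p under 0.05 beside 37.7% of all genes. That 42 leaned on single pools. The count over all genes, 5189 of 13766 with all pools, did not always move the same way. It rose without healthy male 2, where the count of steady genes fell. Leaving out healthy female 1 gave 109 beside 6047 of 13799 genes, and leaving out ascitic male 1 gave 59 beside 5686 of 13562. The other healthy pools gave 42 (female 2), 11 (male 1) and 22 (male 2) when left out. Beside these stood 5143 of 13782, 3776 of 13603 and 5331 of 13762 genes. The other ascitic pools gave 3 (female 1), 4 (female 2) and 4 (male 2). Beside these stood 3664 of 13515, 3730 of 13746 and 3517 of 13442 genes. For 83 of the 200 genes (41.5%) the lowest ascitic pool exceeded the highest healthy pool, beside 24.3% of all genes, and for 0 the reverse held, so that 27.2% of all genes had no overlap in either direction. Between the sexes 0 steady genes had no overlap on this scale, beside 1.53% of all genes. Healthy female 2 was the lowest pool for every steady gene on this scale. Leaving it out, alone or with healthy male 1, therefore could not change the count for ascites. Without healthy female 2 that count was 83, beside 32.0% of all genes without overlap in either direction. Without healthy male 1 the count was 86 beside 30.7%, and without both pools 86 beside 39.9%. Between the sexes these omissions gave 0 beside 4.5%, 1 beside 3.78% and 1 beside 7.29%. Without healthy female 1, 13 steady genes (6.5%) passed as higher in ascitic birds, beside 26.0% of all genes, and without healthy female 2, 5 did, beside 21.6% of all genes. In the other 6 omissions of 1 pool 0 steady genes passed, beside 6.64% to 21.9% of all genes. The choice of the members fixed their level relative to the size factors, so their differences under total reads follow the size factors divided by total reads.

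Summed over the 200 genes, the share of all reads was lower in every healthy than in every ascitic pool. It was 1.21% in healthy female 1, 0.595% in healthy female 2, 1.07% in healthy male 1 and 1.19% in healthy male 2. It was 1.48% in each of the ascitic female pools, 1.27% in ascitic male 1 and 1.68% in ascitic male 2. Wilson 95% intervals reached at most 0.00459 percentage points to either side and cover counting error only. The healthy mean was 1.02% ± 0.287 and the ascitic mean 1.48% ± 0.169 (SD, n = 4 each), with no test since the members follow the size factors, and healthy female 2 was the farthest pool from the rest. Without it the healthy mean was 1.16% ± 0.0783 (SD, n = 3).

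In normalized reads the same sums were level. The healthy mean was 349381 ± 17659 and the ascitic mean 340364 ± 11928 (SD, n = 4 each), with a highest pool 1.13 times the lowest, whereas the raw sums ran from 159521 to 511591 reads. Used as the reference in place of the deposited factors, the summed reads of the 200 genes gave factors between 0.953 and 1.08 times the deposited ones. The ascites effect then had 1306 genes past the threshold, 796 higher and 510 lower, beside 1384 with the deposited factors, 769 higher and 615 lower. Total reads as the reference gave factors from 0.679 times the deposited one in ascitic male 2 to 1.93 times in healthy female 2, and 2541 genes, 2293 higher and 248 lower. Since the members were chosen on values already scaled by size factors, their closeness to those factors is a property of the choice.

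The 200 genes that the rule chose under total reads had wide ranges on the deposited scale. Their ranges under total reads ran from 0.25 to 0.65 with a median of 0.55, wider than the 0.45 of the steady genes on the deposited scale. On the deposited scale the ranges of that other list ran from 0.82 to 2.14 with a median of 1.42, healthy female 2 was the highest pool for 200 of 200, and the ascitic minus healthy difference was below 0 for 200 of 200, with a median of -0.58. Genes level under total reads follow the ratio of the 2 sets of factors on the deposited scale, so these directions were fixed by the choice. Other scalings kept more of the steady genes. The rule chose 160 of the 200 again under trimmed means of M values, 118 under upper quartile factors and 187 on log2 of normalized reads plus 1, and the median range of the 200 genes was 0.46, 0.50 and 0.47 on those scales.

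The rule was then applied to 4 pools and the genes it chose were measured in the 4 pools that took no part in the choice. The 200 genes chosen in female pools had a median range of 0.24 there and 0.49 in the male pools, where the other open genes had 0.82, and 79.5% of them were below that median of the others. Those chosen in male pools had 0.19 there and 0.69 in the female pools, where the others had 1.11. Genes chosen in healthy pools had 0.36 in the ascitic pools beside 0.50, and genes chosen in ascitic pools had 0.81 in the healthy pools beside 1.04. In each direction the list was thus steadier in the unused pools than the other open genes, and less steady than where it was chosen. Healthy female 2 set much of the size of these ranges. With it left out of the measuring, the genes chosen in male pools had 0.32 in the female pools beside 0.49 in the others, and the genes chosen in ascitic pools had 0.39 in the healthy pools beside 0.53. With it left out of the choosing, genes chosen in female pools had 0.56 in the male pools beside 0.80, and genes chosen in healthy pools 0.39 in the ascitic pools beside 0.49. Without healthy male 1, genes chosen in female pools had 0.36 in the male pools beside 0.59 and genes chosen in ascitic pools 0.80 in the healthy pools beside 0.97. With healthy male 1 left out of the choosing, genes chosen in male pools had 0.85 in the female pools beside 1.10 and genes chosen in healthy pools 0.39 in the ascitic pools beside 0.50. The size factors were set over all 8 pools together, so the unused pools were not wholly apart from the choice.

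**Figure D4:**
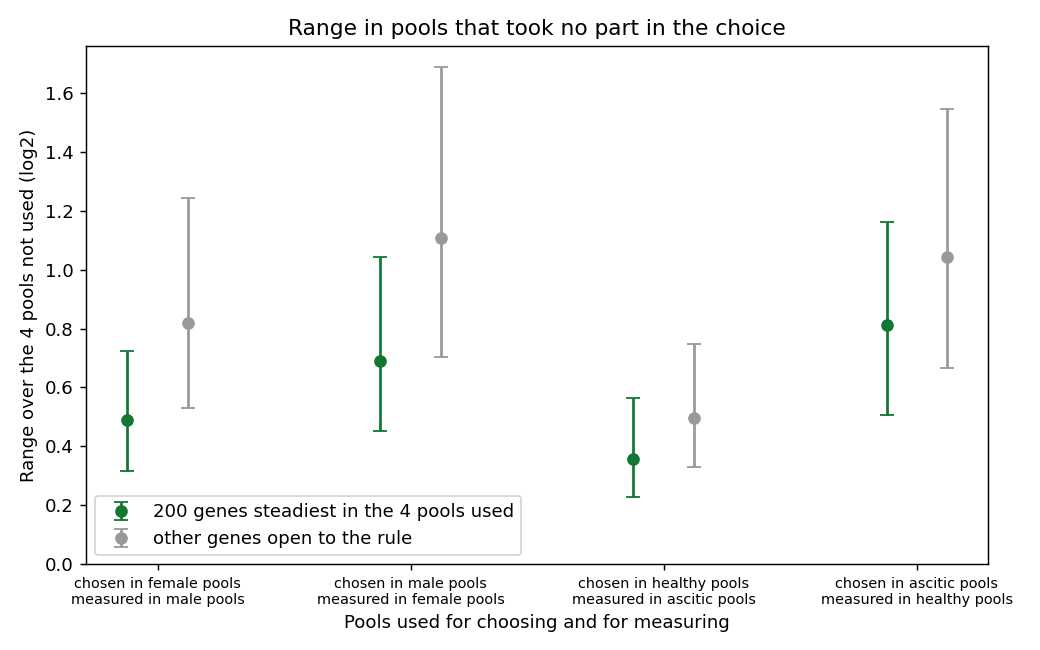
Range over the 4 pools not used for choosing, in log2 units, for the 200 genes chosen in the other 4 pools (green) and the other genes open to the rule (grey); points are medians over genes and bars run from the first to the third quartile. The green medians are 0.49, 0.69, 0.36 and 0.81 and lie below the grey ones in all 4 arrangements, with overlapping bars.

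The ascites effect was also fitted in the sex that had not been used for choosing. These lists are not the 200 steady genes, of which they hold 91 (chosen in female pools) and 63 (chosen in male pools). Genes of a list share the same 4 libraries and are not replicates, so the shares are descriptions. In a limma fit of the 4 male pools 7.84% of 13766 genes passed, and 5 of the 200 genes chosen in female pools did, beside 9.34% of the other open genes. At an unadjusted p under 0.05 the counts were 24.5% of all genes, 10.5% of the chosen genes and 27.9% of the other open genes. In a limma fit of the 4 female pools 0 genes passed, with 13.3% at an unadjusted p under 0.05, and 2 of the 200 genes chosen in male pools were at that limit, beside 14.1% of the other open genes. The median size of the ascites difference was 0.20 for the first list in males and 0.27 for the second in females, beside 0.43 and 0.55 in the other open genes.

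The pools that stood apart moved these counts, but in all 4 omissions tried the chosen list had a smaller share at an unadjusted p under 0.05 than the other open genes. With healthy male 1 left out, 6.20% of all genes passed in males and 2 of the 200 genes chosen in female pools did, with 18 of the list and 19.7% of the other open genes at an unadjusted p under 0.05 (limma). With healthy female 2 left out of the choice, 2 of the 200 passed in males and 19 were at that limit beside 27.4% of the other open genes. With healthy male 1 left out of the choice, 6 of the 200 were at that limit in females beside 13.9%. With healthy female 2 left out of the female fit, 20.8% of all genes and 28 of the 200 genes chosen in male pools passed, with 33.0% of the list and 53.0% of the other open genes at an unadjusted p under 0.05 (limma). The fits that leave out a healthy pool set 1 healthy pool against 2 ascitic ones, so their spread came from the ascitic pair alone and the lone pool was assumed to vary like it. The ascitic female pair was the closest in the data, with a median gap of 0.13 in the other open genes where the healthy female pair had 0.81, so the 20.8% and the 28 genes rest on that assumption.

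The sex effect was compared in the same way between disease states. In a limma fit of the 4 ascitic pools 1.30% of all genes passed, and 1 of the 200 genes chosen in healthy pools did, with 28 of that list beside 15.1% of all genes and 16.7% of the other open genes at an unadjusted p under 0.05. In a limma fit of the healthy pools 0 genes passed, 3.17% were at an unadjusted p under 0.05, and so were 0 of the 200 genes chosen in ascitic pools. The fit of healthy pools and the choice in healthy pools each hold both pools that stood apart. These sex counts are not given without them.

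Lists chosen in pools that share no library had few genes in common, although more than the share that a list makes of the open genes. The female and the male list shared 31 genes, 15.5% of each list, where a list of 200 is 5.69% of the 3513 genes open in both, and 29 of the 31 belong to the 200 steady genes. The healthy and the ascitic list shared 22 genes, 11% of each list, where 200 is 6.04% of the 3314 genes open in both, and 19 of them belong to the steady genes. Of the 200 steady genes, 91 were in the female list, 63 in the male, 80 in the healthy and 33 in the ascitic list.

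Choosing again from 7 pools showed how much the membership leaned on single pools. Without healthy female 2, 79 of the 200 were chosen again, and without any 1 of the other pools between 152 and 185 were. Without healthy female 2 and healthy male 1 together 51 were, and 69 genes were chosen in each of the 8 omissions. Those 69 had a median range of 0.35 and a largest of 0.49. Genes chosen without healthy female 2 deviated in it from the mean of the other 7 pools by a median size of 0.51. The other open genes deviated by 0.77. The values in it lay inside the range of those 7 pools for 41 of the 200 chosen genes (20.5%), beside 35.9% of the others. With ascitic female 2 left out the sizes were 0.11 beside 0.28, and 156 genes (78.0%) lay inside beside 90.1%. A list chosen for a narrow range leaves less room inside that range.

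**Figure D5:**
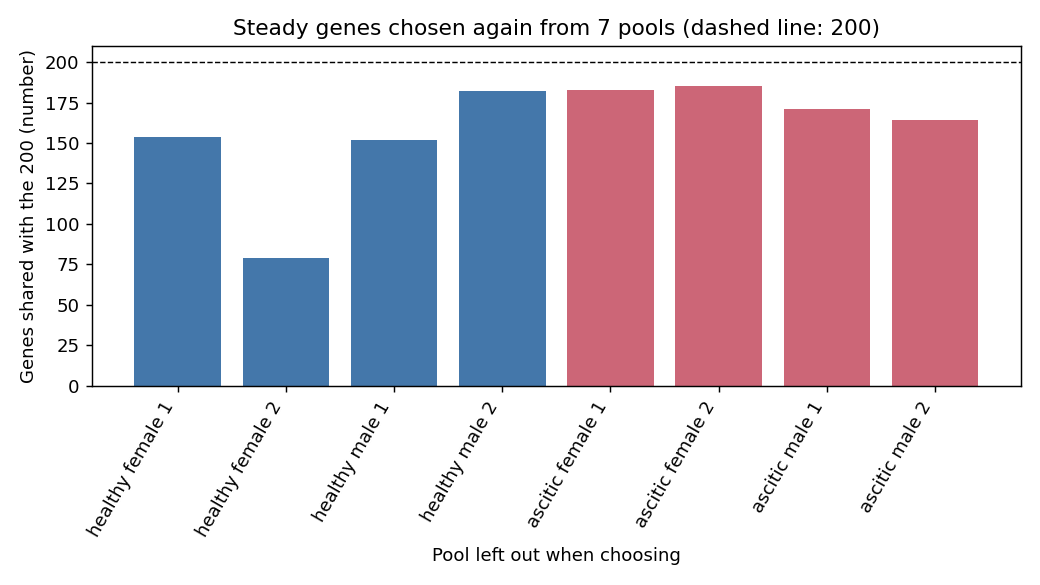
Number of the 200 steady genes chosen again when 1 pool was left out of the choice; each bar is 1 omission, blue for a healthy and red for an ascitic pool, and the dashed line marks 200. The bar for healthy female 2 stands at 79 and the other bars between 152 and 185.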

How the data were processed

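Poly(A) libraries were made from pools whose RNA integrity number exceeded 7.5, per the labels' protocols. The submitters' processing notes list, without roles, TopHat2 2.0.9 and Bowtie2 2.0.6, HTSeq 0.6.1, and DESeq2 1.22.1 under R 3.5.1, among other tools. The sources used here give no genome build. The deposited values are on a log2 scale with a lowest value of 4.11 in every pool, and their form is that of a variance-stabilizing transformation of reads divided by size factors. Undoing it gave whole reads for 100% of values within 0.01 of a read (largest deviation 0.0032).

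Genes needed 15 reads in all and, in 2 pools, the equivalent of 10 reads at the median depth. They were fitted with limma 3.58.1 (R 4.3.3) on the deposited log2 values, with variance trend and robust options, by sex and status or by 4 group means. Adjustment was by the method of Benjamini and Hochberg over 13766 genes. For other scalings the recovered reads were divided by other factors and transformed alike. The fits and the recovery of reads were tested on simulated data. Counting intervals cover reads, not molecules, and nothing beyond the pooling says how separate the 2 pools of a group are.

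The members, the rule and the comparisons were chosen with earlier results of these data known. Without names, IDs were limited to the 2 members of smallest range with an ascites estimate above 0 and the 2 with one below 0. The 0 matches were among 25635 genes of assembly GRCg7b, for which 0 Ensembl entries were filled, so they say nothing about the genes themselves. Gene lists and cell type markers were not analysed here, so the tissue label was not checked. Figures used matplotlib 3.10.9, and tables pandas 2.3.3.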

Additional observations from a re-analysis of the deposited data

How the results depend on the processing

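Upper quartile factors for the tests, the omission of both healthy female 2 and healthy male 1, their omission from the differences, overlaps, shares and lists, the members as reference for the choice and omissions under total reads were chosen after seeing the data. In 80 alternative fits of the 5 effects on the whole table, a steady gene passed in 0. The rule read the same pools, so nothing follows from that 0. In 8 further fits, under total reads with 1 pool left out, a steady gene passed in 2. Among the 80 fits, the ascites effect went from 1384 genes to 2541 with total reads and 831 with the replicate block. The effect in females went from 5 to 211 with total reads, 30 with trimmed means, 32 with upper quartile, 0 with the members' reads, 0 with limma-voom, 1 under the replicate block, and 655 when both pools were omitted. The effect in males went from 457 to 198 with the replicate block. Omitting both pools gave 1347 in males, 103 for sex and 6 for the interaction, where all pools gave 0 for the last pair. What caused these changes was not tested.

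The choice shared with the 200 genes 132 with a mean of at least 8, 85 with at least 10, 0 with total reads, 118 with upper quartile, 91, 63, 80 and 33 in female, male, healthy and ascitic pools alone and 51 without both pools. A limit of 10 removes by construction the genes under it. It shared 175 by standard deviation.

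With 1 pool left out, a lone pool being assumed to vary like the other groups, the numbers of genes for ascites lay between 364 (healthy male 1 out) and 2641 (healthy female 2 out), and ran from 0 to 26 for sex, 0 to 5041 in females, 0 to 1764 in males, 0 to 2218 for the interaction, 893 to 3591 for ascites under total reads and 79 to 185 for the choice. The median range under total reads ran from 0.73 to 1.45 and the mean share of reads from 1.18% to 1.34%. The deviations of same-numbered pools correlated between groups from -0.42 to 0.32, without a common sign. No label pairs these pools, so the replicate block is given here only.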

Other observations

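Some scarce genes that the rule left out were as steady on the deposited scale. Of 10784 genes with a mean under 9, 282 (2.61%) had a range within the limit of 0.55, beside 5.33% of the genes open to the rule. The deposited log2 scale, with its lowest value of 4.11 for 0 reads, compresses low levels.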
